A study of Arabidopsis thaliana with 13 samples.

Results

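In seedlings sampled over 48 h, the transcripts described here were those whose array signal varied least among the well-measured ones. They were chosen from probe sets with a mean log2 signal of 8 or more over 13 arrays, of which there were 2517 among 22746 non-control probe sets. The 200 with the lowest standard deviation (SD) of log2 signal over the arrays were taken. The rule leaves out by name plastid genes, some reference genes, and genes with symbols beginning TUB or VPS. Among the 200 this removed only the plastid gene ndhA, which left 199 probe sets, or 7.91% of those eligible. The other 2318 eligible probe sets serve as the comparison. A probe set is a group of short probes on the array that reads 1 transcript or a few closely related ones.

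RNA was extracted from whole Col-0 seedlings, a standard laboratory accession of Arabidopsis thaliana, at developmental stage 1.0 per the labels. The plants were kept in a growth room at 22 C under a 12 h photoperiod, on MS agar containing 3% sucrose. Every group is a time point with 1 Affymetrix ATH1 array, from hour 26 to hour 74 in steps of 4 h, and all share this genotype and these conditions. The start of the hour count, the lighting during sampling and any pooling of seedlings are not stated in the labels. The course has no replicates of a time point, so each SD combines change over time with array error, and precision is limited by the number of arrays.

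Transcripts with steady levels are used as internal references when other transcripts are measured. Many belong to housekeeping machinery: ribosomes translate messenger RNA, the CCT chaperonin folds actin and tubulin, the proteasome degrades ubiquitin-tagged proteins, and the vacuolar proton pump acidifies the vacuole. In plants many of these proteins are encoded by several genes, so that members of a small family can differ in how steady they are.

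Since the SD over the 13 arrays chose these probe sets, every value of spread, rhythm and drift in them is a description and not a finding. Their SD ran from 0.046 to 0.100 on the log2 scale, with a median of 0.089, against a median of 0.192 for the other eligible probe sets. The highest array stood 1.12-fold to 1.33-fold above the lowest for the constant probe sets, with a median of 1.23-fold, against a median of 1.57-fold for the others. For 191 of the 199 this ratio lay below 1.3, against 151 of the 2318 others. The median coefficient of variation of the linear signal was 6.09% for the constant probe sets and 13.2% for the others.

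**Figure D1:**
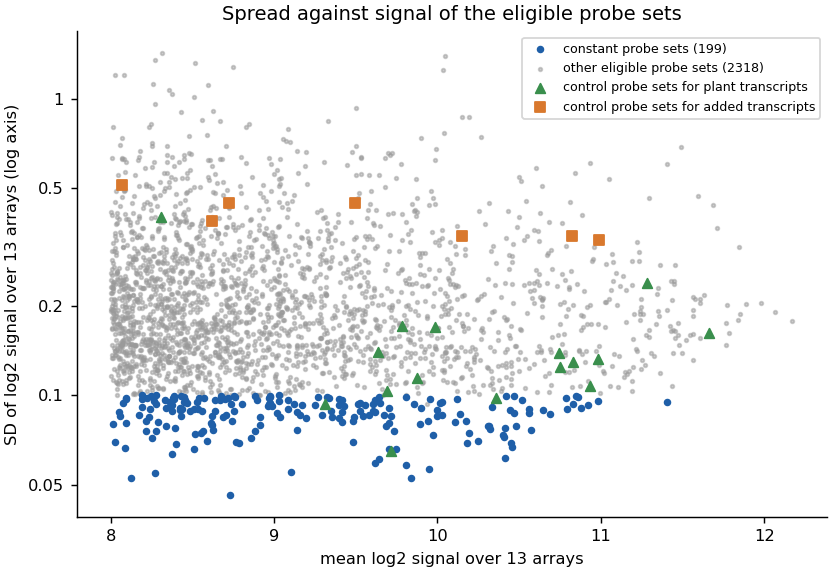
SD of log2 signal (log axis) against mean log2 signal over 13 arrays for the 199 constant probe sets, the 2318 other eligible ones, and control probe sets for plant transcripts and for added control transcripts. Only controls with a mean log2 signal of 8 or more are shown. The constant probe sets lie at or below an SD of 0.100 from a mean of 8.02 to one of 11.4, and the 7 controls for added transcripts lie between 0.335 and 0.513.

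The constant probe sets were spread over most of the signal range. Their median signal over the course lay between 259 and 2758. They made up 95 of 1420 eligible probe sets (6.69%) with a mean log2 signal from 8 to 9, 64 of 673 (9.51%) from 9 to 10, 39 of 317 (12.3%) from 10 to 11, and 1 of 107 (0.93%) above 11. Among the 2843 probe sets with a mean from 7 to 8, which the rule did not admit, 127 (4.47%) had an SD no higher than that of the least steady member.

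The platform annotation gave a single gene to 84 of the 199 constant probe sets, several genes to 12 and no gene to 103. The 84 named probe sets came from 84 different loci, so no gene was counted more than once among them. Of these loci 17 lay on chromosome 1, 13 on chromosome 2, 18 on chromosome 3, 10 on chromosome 4 and 26 on chromosome 5. The median gene length was 2071 bases for the constant loci and 1954 bases for the others. Probe sets designed to read several transcripts made up 8.04% of the constant group and 5.65% of the others.

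The lowest SD of all, 0.046, belonged to a probe set with no gene in the annotation, whose signal stayed between 406 and 457. Among named genes the steadiest was AT3G15710, which encodes a signal peptidase that trims secreted proteins (SD 0.053). Its signals in time order from hour 26 were 279, 282, 281, 291, 278, 262, 264, 270, 278, 289, 272, 280 and 297. The lowest was at hour 46 and the highest at hour 74, a ratio of 1.13. It was also among the 5 dimmest named members. AT3G02560, encoding ribosomal protein S7 of the small subunit, followed with an SD of 0.053. Its signals in the same order were 852, 905, 935, 969, 942, 910, 934, 871, 935, 887, 919, 946 and 892. They dipped at hours 26 and 54, and stayed within a 1.14-fold range.

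AT3G42050, which encodes subunit H of the vacuolar proton pump, had the narrowest range of the 199 probe sets (1.12-fold, SD 0.055). Its signals in time order were 520, 567, 511, 574, 556, 522, 574, 557, 549, 564, 549, 566 and 552, and the lower values fell at hours 26, 34 and 46. A subunit e gene of the same pump, AT4G26710, lay between 744 and 888 with a median of 842 (SD 0.066). VHA-A3, a pump subunit of the vacuolar membrane, lay between 531 and 627 with a median of 553 (SD 0.086). Of the 4 eligible genes in the vacuolar proton pump list, 2 were members, AT3G42050 and VHA-A3, while AT3G58730 and AT4G02620 had SDs of 0.130 and 0.148. AT4G26710 was not in that list. VHA-A1 had an SD of 0.060 but a mean log2 signal of 7.19, under the level the rule asks for. The background share for this and the following lists is 84 of 1093 eligible probe sets with a single named gene (7.69%), and with lists of this size nothing is drawn from the difference.

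Genes of mitochondrial respiration were represented by 5 of 17 eligible, in a list put together after the members were seen. AT4G37830, encoding subunit VIa of cytochrome c oxidase, lay between 1270 and 1491 with a median of 1373 (SD 0.062). MPPBETA, the beta subunit of the mitochondrial processing peptidase, which in plants is part of complex III, lay between 782 and 902 with a median of 870 (SD 0.066). The other 3 encode complex I subunits and were named after their values were seen: AT3G03070 (SD 0.087), AT5G52840 (SD 0.092) and AT4G02580 (SD 0.094). Of the 12 eligible genes in the list that were not members, AT3G27240 had an SD of 0.129, and the highest in the list was 0.210 for SDH1-1, a subunit of succinate dehydrogenase. MAB1, which encodes the E1 beta subunit of the mitochondrial pyruvate dehydrogenase and was not in the list, lay between 664 and 783 with a median of 720 (SD 0.070).

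Protein turnover and folding contributed several steady genes. AT1G45000, which encodes the RPT4b ATPase of the proteasome, lay between 306 and 364 with a median of 336 (SD 0.063). AT4G24820, encoding the RPN7 subunit, lay between 424 and 526 with a median of 466, and at an SD of 0.100 it was among the last taken. These were 2 of the 5 eligible proteasome genes, and the other 3 had SDs of 0.108 to 0.141. UBC22, a ubiquitin-conjugating enzyme, lay between 242 and 314 with a median of 269 (SD 0.095). In a list of CCT chaperonin subunits put together after the members were seen, 3 of 5 eligible genes were members. AT1G24510 (CCT5) lay between 413 and 488 with a median of 433 (SD 0.070). The other 2 members, AT5G20890 (CCT2, SD 0.082) and AT3G18190 (CCT4, SD 0.084), both had their lowest signal at hour 54. The eligible genes of the list that were not members were AT3G11830 (CCT7, SD 0.106) and AT5G26360 (CCT3, SD 0.116).

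**Figure D2:**
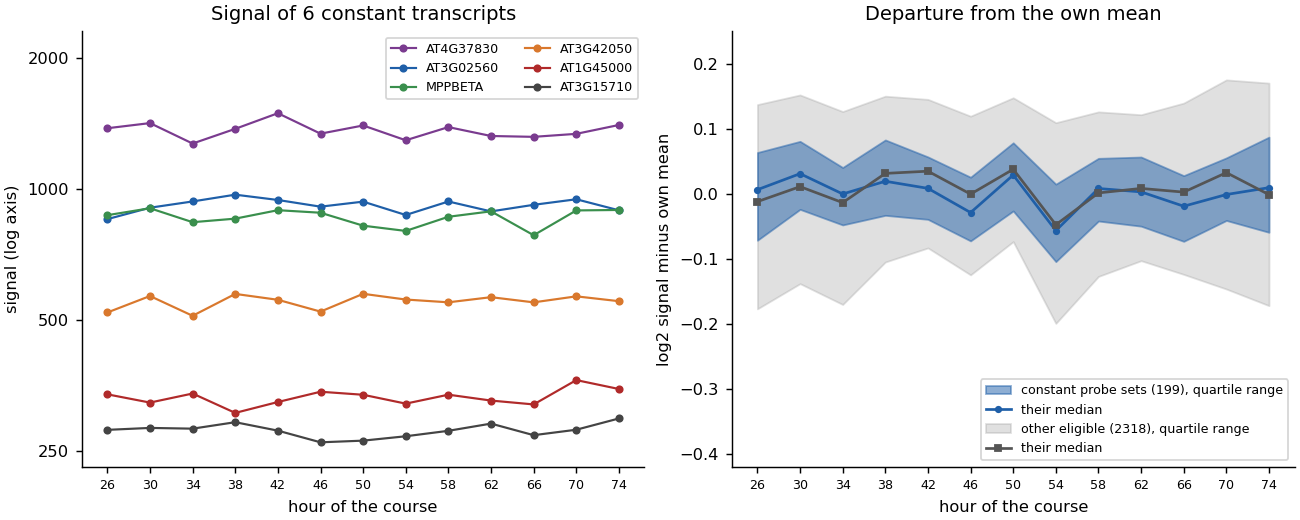
Left, signal (log axis) by hour of the course for 6 constant transcripts, 1 array per point. Right, log2 signal minus the own mean of each probe set, as median (line) and quartiles (band), for the 199 constant and the 2318 other eligible probe sets. The constant median stays between -0.057 and 0.031, and the median of the others between -0.048 and 0.038. Both have their lowest point at hour 54.

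Further genes named by rank had no common role. AT3G08650, a ZIP family metal transporter, lay between 247 and 294 with a median of 276 (SD 0.067). AT4G12650, of the nonaspanin family of multi-span membrane proteins, lay between 425 and 513 with a median of 464 (SD 0.072). AT5G66240, a WD40 repeat protein, lay between 359 and 416 (SD 0.070), and AT2G04900 lay between 332 and 392 (SD 0.066). Further members by the same rule were AT4G20150 (SD 0.070), the leucine-rich repeat protein AT5G21090 (SD 0.080), the major facilitator family member AT1G64650 (SD 0.081) and the aldose epimerase family member AT5G57330 (SD 0.081). In the nonaspanin family, listed after the members were seen, 3 of 5 eligible genes were members. The other 2 members were AT2G01970 (SD 0.088) and AT1G14670 (SD 0.099), and the highest SD of an eligible gene in the family was 0.170.

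The brightest named members were 4 genes of translation and a gene of the B12D family. AT2G41840, encoding ribosomal protein S2, lay between 1423 and 1757 with a median of 1633 (SD 0.089). AT5G19510, a subunit of the elongation factor that recharges the translation GTPase, lay between 1378 and 1664 with a median of 1533 (SD 0.076). AT3G48140, of the B12D family, lay between 1389 and 1705 with a median of 1517 (SD 0.090). AT2G34480 and AT1G77940, encoding ribosomal proteins L18a and L30, had medians of 1489 and 1433. At the dim end, besides AT3G15710, AT3G08650 and UBC22, AT5G40190 had a median signal of 263 (SD 0.088). AT3G57280, which encodes the plastid fatty acid exporter FAX1, had a median signal of 290 (SD 0.086).

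Genes for cytosolic ribosomal proteins were the largest group among the named members, by a list put together after the members were seen. They made up 19 of the 84 named members and 19 of 91 eligible ribosomal protein probe sets (20.9%), against 7.69% of all eligible named probe sets. The small subunit gave 7 of 31 and the large subunit 12 of 60. None of the 21 eligible ribosomal protein probe sets with a mean log2 signal from 8 to 9 was a member, against 8 of 36 from 9 to 10, 11 of 32 from 10 to 11 and 0 of 2 above 11. The shares of all eligible probe sets at these levels, given above, were 6.69%, 9.51%, 12.3% and 0.93%, so few members would be counted among 21 probe sets at the lowest level in any case. The median SD of all 91 was 0.139, so most genes of the list were not members, and the highest was 0.343 for AT5G60670, an L12 gene.

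Members came from 16 of the 50 ribosomal proteins with an eligible probe set. In 3 of these proteins 2 genes were members. For S7 these were AT3G02560 and AT1G48830 (SD 0.099), and the remaining gene AT5G16130 lay just outside at place 222 (SD 0.102). For L7 they were AT2G01250 (SD 0.073) and AT2G44120 (SD 0.088), while AT3G13580 had an SD of 0.133. For L18a they were AT2G34480 (SD 0.087) and AT3G14600 (SD 0.088). Other proteins had a steady and a less steady gene. AT3G24830, the L13a member, lay between 1285 and 1492 with a median of 1409 (SD 0.069), while the other L13a genes AT3G07110, AT4G13170 and AT5G48760 had SDs of 0.122, 0.132 and 0.251. AT1G15930, the S12 member, had an SD of 0.073, against 0.180 for AT2G32060. AT5G47700, a P1 protein gene of the ribosomal stalk, had an SD of 0.081, against 0.143 for AT1G01100 and 0.198 for AT4G00810. These genes also differ in mean signal, and similar copies may share probes, whose part was not tested. Apart from those with the lowest SDs, the genes of this paragraph were named after their values were seen.

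**Figure D3:**
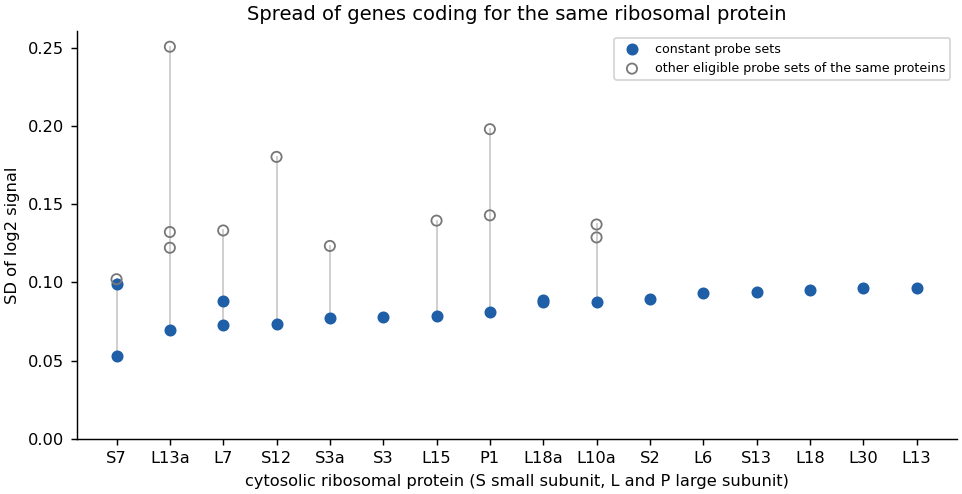
SD of log2 signal over 13 arrays for the eligible probe sets of the 16 ribosomal proteins with at least 1 constant gene, ordered by their lowest SD. Filled points are the 19 constant probe sets and open points the other genes of the same protein. Of the 16 proteins, 8 also had an eligible probe set that was not constant.

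The ribosomal protein members shared a low array. At hour 54 all 19 lay below their own mean, with a median departure of -0.147 on the log2 scale, and 10 of them had their lowest signal there. AT5G47700 departed most, by -0.210, and AT1G48830 least, by -0.007. Among the 65 other named members, 45 lay below their mean at hour 54, with a median of -0.044. Low spread was the condition for being a member, which limits how deep a dip a member can have. In the 72 eligible ribosomal protein probe sets that were not members, 69 lay below their mean with a median of -0.291, and 48 had their lowest signal at that hour. For the 937 other eligible named probe sets the count was 512 (54.6%) and the median -0.026. At hour 30, taken 24 h before hour 54, the ribosomal members had a median departure of 0.037, and at hour 38 18 of 19 lay above their mean with a median of 0.097. The 72 other eligible ribosomal protein probe sets had medians of -0.019 at hour 30 and 0.100 at hour 38. At hour 38 only 14 of these 72 lay below their mean, against 439 of the 937 other eligible named probe sets (median 0.014).

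The size of the dip at hour 54 depends on how arrays are scaled. With quantile normalisation 16 of the 19 ribosomal members lay below their mean at hour 54 (median -0.089), and with each array centred on its median all 19 did (median -0.229). Centred on the control probe sets for plant transcripts with a mean log2 signal of 8 or more, 11 of 19 did and the median was -0.057, so the direction turned for 8 genes. Of the 72 other eligible ribosomal protein probe sets, 67 still lay below their mean after the same centring (median -0.201), and 67 to 70 did under every scaling tried. Relative to the own means, the median of all non-control probe sets stood at 0.074 at hour 54 as deposited and at 0.165 after centring on those controls. The controls for plant transcripts had a median departure of -0.086 at that hour, the controls for added transcripts one of -0.408, and the 3' to 5' ratio of GAPDH was 1.05, within its range of 0.953 to 1.25 over the course. Their part in the dip was not tested. In RNA of whole seedlings, fewer cells of a type and less RNA per cell cannot be told apart.

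**Figure D4:**
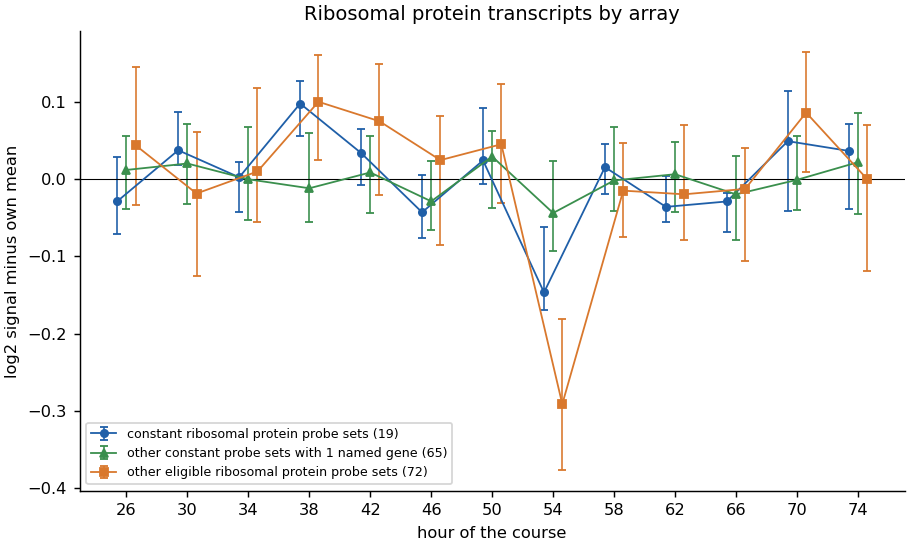
Log2 signal minus the own mean by hour, as median (points) and quartiles (bars), for the 19 constant ribosomal protein probe sets, the 65 other constant probe sets with a single named gene, and the 72 other eligible ribosomal protein probe sets. The medians at hour 54 are -0.147, -0.044 and -0.291. Points are shifted sideways for legibility.

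Without hour 54 the median SD of the ribosomal members was 0.077, against 0.088 with all arrays. It was 0.123 against 0.146 for the 72 other eligible ribosomal protein probe sets, and 0.088 against 0.090 for the 65 other named members. Hour 54 was singled out because ribosomal protein probe sets were low there, so nothing is drawn from the changes without it. When the selection was repeated on the other 12 arrays it held 30 ribosomal protein probe sets in place of 19. The median correlation between the profiles of the 19 over the 13 arrays was 0.36, and 0.21 without hour 54. For the 72 other eligible ribosomal protein probe sets it was 0.39, and 0.12 without hour 54. For all 199 members it was 0.066 and for the other eligible probe sets 0.014. These correlations are descriptions, and the profiles share the same arrays and the same scaling.

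As a group, the 199 probe sets left their means most at 3 arrays. The root mean square departure was 0.102 at hour 74, 0.098 at hour 54 and 0.095 at hour 26, against 0.072 at hour 62. For the other eligible probe sets the departure lay between 0.216 and 0.326 and was largest at hour 34. It was also high at the same 3 arrays, with 0.322 at hour 26, 0.292 at hour 74 and 0.287 at hour 54. Hour 54 held the lowest signal of 41 members (20.6%), against 15.7% of the other eligible probe sets, and hour 74 the highest signal of 33 members (16.6%), against 13.5%. The lowest signal fell at hour 26 for 11.6% of members and 13.0% of the others, and at hour 74 for 11.6% and 11.5%. The shares of the members and the others were thus close at the ends of the course, and no difference was tested. The leading principal component of the members held 16.9% of their variance, against 36.4% for the other eligible probe sets. Of the variance left in a probe set after a linear drift, the median share in a 24 h curve was 26.9% for members and 43.9% for the others.

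A curve with a 24 h period and a linear drift was fitted to every probe set with limma. The fitted change from trough to peak had a median of 1.08-fold and reached 1.17-fold among the members, against a median of 1.24-fold for the others. By the moderated F of limma, 0 of the 199 members were called rhythmic at an adjusted p under 0.05, where 18.3% of the 13647 probe sets tested and 31.8% of the other eligible ones were. For drift 0 members were called, against 0.96% of those tested and 1.47% of the other eligible ones. Before adjustment 2 members (1.01%) had a p under 0.05 for rhythm and 5 (2.51%) for drift in limma, against 47.0% and 13.6% of the other eligible probe sets. Without the moderation of variances 8 members (4.02%) were called rhythmic, against 26.6% of the other eligible probe sets and 15.4% of all tested. Low spread was what chose the members, so nothing is read from these counts.

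The largest fitted amplitudes among named members were small. AT3G12760, a DCN1-like protein of the cullin pathway, lay between 320 and 389 with a fitted log2 amplitude (± SE) of 0.10 ± 0.04 and a peak at hour 9.95 (hours of the course modulo 24). AT5G40190 had an amplitude of 0.10 ± 0.04 with a peak at hour 6.51, and AT2G11910 one of 0.10 ± 0.04 with a peak at hour 16.3. Fitted peaks of the 199 were spread over the cycle, with 27 to 37 in each 4 h window. The steepest slopes were those of AT1G14670 at -0.11 ± 0.05 per 24 h, AT3G60770, encoding ribosomal protein S13, at -0.10 ± 0.05 and CLPP4, a subunit of the plastid Clp protease, at 0.10 ± 0.05. CLPP4 lay between 642 and 776, with its lowest signal at hour 26 and its highest at hour 70.

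Genes in published lists of reference genes were not among the members by name, but only 7 of the 18 listed loci had a named probe set, and 103 members have no gene name. The rule also bars some reference genes by name, although ndhA was the only probe set it removed from the 200 taken. The 2 eligible ones were AT4G26410, with an SD of 0.126 at place 489, and GAPC2, a glyceraldehyde phosphate dehydrogenase, with an SD of 0.175 at place 1193. Signals of GAPC2 lay between 2479 and 3583. Another 5 had a mean signal under the level the rule asks for: AT2G32170 (SD 0.093), PEX4 (SD 0.097), AT5G46630 (SD 0.148), AT4G33380 (SD 0.195) and AT5G55840 (SD 0.211). Most loci of the other lists also had no named probe set: 2 of 19 had one for the COP9 signalosome and cullins, 2 of 16 for translation factors and 5 of 24 for the clock. Absence by name therefore says little about these groups. The eligible gene of each was not a member: CUL4 (SD 0.116) for the COP9 signalosome and cullins, EIF4A-2 (SD 0.115) for translation factors and TIC (SD 0.334) for the clock. The eligible shoot markers had SDs from 0.207 for PRK to 0.608 for LHCB4.2, and the root marker PYK10 had an SD of 0.139. The root markers EXPA18 and EXPA7, with mean signals under the level of the rule, had SDs of 0.271 and 0.408. Whether the share of shoot and root tissue varied between arrays was not tested.

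The last places of the selection were close together. The named members nearest the limit were AT4G24820, the clathrin adaptor AT2G25430 and AT5G03345, at places 196, 198 and 200. AT5G03345, the last taken, had an SD of 0.100 with signals from 275 to 347. The first probe set outside, at place 201, had no gene and the same SD to 3 digits. The nearest named genes outside were AT5G16550, AT4G10480, which encodes an alpha subunit of the nascent polypeptide-associated complex, and AT1G25260, with SDs of 0.100, 0.100 and 0.101.

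Part of the low spread carried over to arrays that had not been used to pick. When 200 probe sets were picked by the same rule on hours 26 to 46 alone, their median SD was 0.066 there and 0.111 over hours 50 to 70. The rest of the eligible probe sets had a median SD of 0.176 over hours 50 to 70, and 172 of the 200 picked (86%) lay below the median of all eligible. Picked on hours 50 to 70, the 200 had a median SD of 0.066 there and 0.111 over hours 26 to 46, against 0.182 for the rest, and 168 (84%) lay below the median. The picks from the separate parts of the course shared 36 probe sets, or 18% of each. Each pick took 200 of the eligible probe sets, which numbered 2534 on hours 26 to 46 and 2500 on hours 50 to 70. Both parts belong to the same course and scaling, without replicates, so these values are descriptions.

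**Figure D5:**
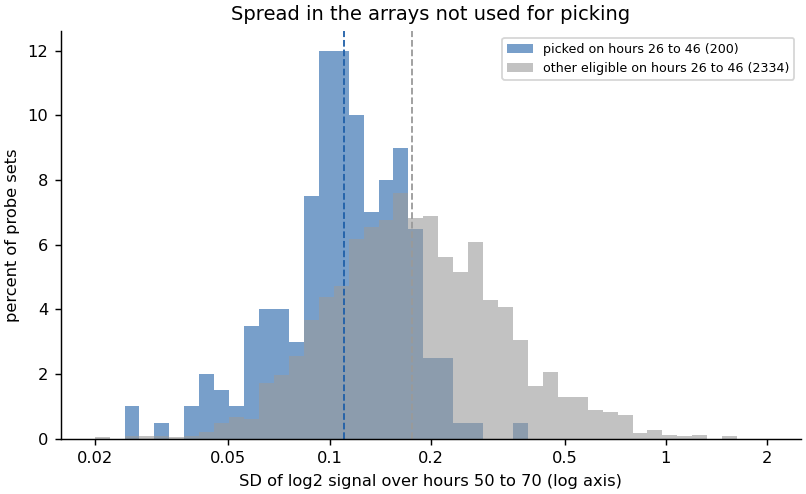
Percent of probe sets by SD of log2 signal over hours 50 to 70 (log axis), for the 200 picked on hours 26 to 46 and the other 2334 eligible on those hours. Dashed lines mark the medians, 0.111 for those picked and 0.176 for the others, and the distributions overlap.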

How the data were processed

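The authors deposited an intensity in linear units for each probe set and array, made with MAS5 per the submitters' processing notes (version not given in the sources used here). Trimming 2% at either end gave a mean of 100.01 on every array, so arrays had been scaled to 1 target, which hides changes in total RNA. Log2 was taken with no further scaling. A linear drift and a 24 h cosine and sine pair were fitted with limma 3.58.1 in R 4.3.3 (intensity trend, Benjamini-Hochberg adjustment). The fit covered the 13647 probe sets whose mean lay above the 40th percentile. It was also run on simulated data in which noise was drawn at the same SD throughout, and nothing is drawn from that run here. The fit had 9 residual degrees of freedom. Members, gene lists and the rule for named genes were chosen with earlier results of these data known. That rule named, among members with a single gene, the 25 with the lowest SD, the 5 brightest and 5 dimmest, the 3 largest amplitudes and 3 steepest slopes, all members of the lists, the genes nearest the limit, and every published reference gene measured. Key words for roles named no gene but UBC22 and VHA-A3. Genes and symbols came from the platform annotation and the TAIR10.1 gene table. The array's genome build is not stated, so no coordinates are given. Figures were drawn with matplotlib 3.10.9. Signals of different probe sets are not compared as transcript levels.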

Additional observations from a re-analysis of the deposited data

How the results depend on the processing

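No paired analysis was possible because every time point has 1 array and all arrays carry the same replicate number. Of the 199 members, 159 to 182 were taken again when a single array was left out, and 128 were taken in all 13 such selections, among them the 25 steadiest named genes. The coefficient of variation in place of the SD shared 187, the range 153, median centring 152, quantile normalisation 148 and leaving out hours 26 and 74 together 139. Fewer were shared by other choices: 104 after centring on the control probe sets for plant transcripts, 101 by median absolute deviation, 103 by the residual SD of the fit, 124 with a minimum mean of 7, 104 with a minimum of 9, 96 on hours 26 to 46 and 90 on hours 50 to 70. The median SD was 0.107 after centring on those controls, and 0.0865 to 0.0899 with an array left out. Ribosomal protein probe sets numbered 12 by the residual SD, 30 with a minimum mean of 9, 11 on hours 50 to 70, and 17 to 30 with an array left out, the 30 without hour 54. Of the 19 ribosomal members, 11 lay below their mean at hour 54 after centring on the controls for plant transcripts. Rhythmic calls by limma numbered 2504 of 13647 in the main fit. They numbered 840 of 2517 when only means of 8 or more were tested, and 2047 to 2441 of 13647 with an array left out. Drifting calls numbered 8 without moderation, 39 with means of 8 or more only, 21 without hours 26 and 74, and 49 to 169 with an array left out, the 49 without hour 26 and the 75 without hour 74. In the main fit drifting calls numbered 131, and the 169 came without hour 62. Some of these settings tested fewer probe sets or used fewer arrays, and the cause of the shifts was not tested. Centring on control probe sets, the residual SD, leaving out hours 26 and 74 together and reading picks from 1 part of the course on the other were chosen after seeing the data. In the range of mean log2 signals used here array error and true change of this size cannot be separated without replicates.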

Other observations

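The control probe sets on the same arrays give other values of spread. The 16 for plant transcripts (GAPDH, actin and ubiquitin) had SDs of log2 signal from 0.065 to 0.398, with a median of 0.131, and the 7 for added control transcripts had SDs from 0.335 to 0.513. The median departure of the added transcripts from their own means was 0.491 at hour 34 and -0.710 at hour 38. At hour 38 the median departure of the constant probe sets was 0.019.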
